A study of Homo sapiens with 5 samples.

Results

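Described here are the SMAD2 summits inside 4 chosen stretches of human chromosome 19 that are packed with zinc finger genes, called the clusters. The members are all summits between 19.8 and 24.4 Mb, called the pericentromeric cluster, between 36.65 and 38.35 Mb, the proximal long arm cluster, between 52.4 and 54.0 Mb, the distal long arm cluster, and between 57.6 and 59.1 Mb, the subtelomeric cluster (build hg19). These bounds were set by position and use no measured value. They cover 9.4 Mb and held 1861 of the 233945 summits of the series, while the rest of chromosome 19 held 11624. Any zinc finger genes outside these bounds belong to the rest, which is therefore not a reference free of such genes.

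SMAD2 was immunoprecipitated from T47D, an established human luminal breast cancer line that is positive for the estrogen receptor, and the bound DNA was sequenced (ChIP-seq). A summit is the base at which a stretch of enriched DNA is highest. In the first group, 2 libraries came from cells given activin A at 50 ng/ml for 1.5 h, and in the second, 2 libraries came from cells given palbociclib at 1 µM for 24 h and the same activin A treatment. All 4 libraries therefore come from activin-treated cells of this line, and a library of input DNA from untreated cells, which was the control for peak calling, was not analysed here. The labels do not say that replicates were separate cultures, and their spread could be purely technical. The lists of activin replicates 1 and 2 and palbociclib replicates 1 and 2 ran to 51535, 54243, 62960 and 65207 summits, and per-library counts are given in this order throughout. The read depth behind them is unknown.

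As background, most genes of these clusters encode proteins that pair a KRAB domain with a long array of zinc fingers. The fingers read DNA, often of transposable elements, and the KRAB domain recruits TRIM28, which brings in the histone methyltransferase SETDB1 and leads to H3K9 trimethylation and silencing. The genes arose by tandem duplication, so neighbours resemble each other in sequence, and the clusters themselves carry H3K9 trimethylation in many human cells. SMAD2 is phosphorylated by the activin receptor, joins SMAD4 and enters the nucleus. SMAD3 and SMAD4 contact the motif CAGAC and the palindrome GGCGCC, while the common form of SMAD2 is known to depend largely on its partners for DNA contact. Palbociclib inhibits CDK4 and CDK6, the kinases that drive entry into S phase. The treatment contrast addresses the effect of the inhibitor on the SMAD2 map of activin-treated cells.

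In the RefSeq annotation of GRCh38.p14, whose order of genes is used here without its positions, 35 protein-coding genes run from ZNF93 to ZNF254, the listed ends of the pericentromeric cluster, and 33 of them have zinc finger names. The group includes ZNF91 and ZNF93, repressors of SVA and L1 retrotransposons. From ZNF146 to ZNF573, in the proximal long arm cluster, 28 of 29 protein-coding genes have such names. From ZNF350 to ZNF813, in the distal long arm cluster, 36 of 43 do. From ZNF264 to MZF1, at the subtelomeric end, 50 of 62 do, and this stretch also holds TRIM28, the cofactor of the KRAB domain, ZNF274, a zinc finger protein that recruits SETDB1 to other zinc finger genes, and ZSCAN4, which acts at telomeres in early embryonic cells. Since the summits are placed on hg19, no summit was assigned to a gene.

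Promoters of the listed genes show what kind of DNA stands before these genes. Of 66 listed genes, 59 matched a promoter by symbol, and ZNF98, ZNF99, HKR1, ZNF480, ZNF28, ZNF211 and TRIM28 did not. The motif CAGAC, searched on both strands in the 250 bases before the start, was found in 23 of the 59 (39.0%), in 41.2% of 1451 other chromosome 19 promoters and in 37.8% of all 27305 promoters. The palindrome GGCGCC was found in 2 of the 59 (3.39%), against 17.6% of the other chromosome 19 promoters and 16.1% of all promoters. The AP-1 motif TGANTCA was found in 4 of the 59 (6.78%), against 4.55% and 6.60%. The median GC content was 58.8% in the listed promoters, 62.4% in the others of chromosome 19 and 58.0% in all. A match is a description of the letters and not a site of binding. From each cluster, a listed gene with the most CAGAC matches is printed below (where genes were equal, the first in the list), as the 250 bases upstream of the start in the gene's own direction (RefSeq, GRCh38.p14, chromosome 19). ZNF382 and ZNF264 lie on the plus strand and ZNF681 and ZNF432 on the minus strand. Capitals mark CAGAC or its reverse complement GTCTG.
ZNF681: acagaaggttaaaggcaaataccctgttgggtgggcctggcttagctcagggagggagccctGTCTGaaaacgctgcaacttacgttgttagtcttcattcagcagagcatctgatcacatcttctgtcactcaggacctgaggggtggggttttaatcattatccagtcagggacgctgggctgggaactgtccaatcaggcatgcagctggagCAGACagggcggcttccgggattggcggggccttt
ZNF382: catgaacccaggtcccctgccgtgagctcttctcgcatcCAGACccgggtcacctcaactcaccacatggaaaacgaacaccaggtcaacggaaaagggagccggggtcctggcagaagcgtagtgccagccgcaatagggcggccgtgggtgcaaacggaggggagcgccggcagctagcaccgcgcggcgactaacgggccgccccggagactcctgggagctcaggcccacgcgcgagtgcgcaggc
ZNF432: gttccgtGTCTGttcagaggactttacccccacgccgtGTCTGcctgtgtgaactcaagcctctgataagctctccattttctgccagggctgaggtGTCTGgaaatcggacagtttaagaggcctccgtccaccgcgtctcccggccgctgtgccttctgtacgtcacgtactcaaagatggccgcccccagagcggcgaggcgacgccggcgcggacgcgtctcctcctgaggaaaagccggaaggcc
ZNF264: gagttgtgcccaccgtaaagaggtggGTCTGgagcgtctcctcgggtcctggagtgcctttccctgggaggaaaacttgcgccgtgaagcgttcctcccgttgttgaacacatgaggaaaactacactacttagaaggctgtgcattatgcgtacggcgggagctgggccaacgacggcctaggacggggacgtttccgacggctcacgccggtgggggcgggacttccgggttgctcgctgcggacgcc
ZNF432 carries 3 matches, ZNF681 carries 2, and ZNF382 and ZNF264 carry 1 each, as many as 2 other listed genes of the proximal and 4 others of the subtelomeric cluster. The GC content of the 4 sequences is 54.4% in ZNF681, 67.2% in ZNF382, 61.6% in ZNF432 and 62.0% in ZNF264.

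SMAD2 summits were sparser in the clusters than in the rest of chromosome 19 in every library. The clusters held 379 and 446 summits with activin A alone, replicates 1 and 2, and 509 and 527 after palbociclib. Per Mb this was 40.3, 47.4, 54.1 and 56.1 summits, against 54.4, 60.9, 67.5 and 72.0 in the rest of the chromosome, whose length of 45.6 Mb leaves out the clusters and a stretch of 3.92 Mb with no summit in any library. The mean density was 49.5 ± 7.15 per Mb in the clusters and 63.7 ± 7.71 per Mb in the rest (SD, n = 4). The ratio of the densities was 0.775 ± 0.025 (SD, n = 4) and ran from 0.741 to 0.802, so all 4 libraries lay below 1. An exact two-sided sign-flip permutation test over the 4 libraries gave p = 0.125, the smallest p that 4 libraries allow. Chromosome 19 as a whole is rich in summits, and the other chromosomes held 20.0 per Mb on average, less than the clusters.

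The 4 clusters spanned a wide range of densities. The pericentromeric cluster was the sparsest, with 94, 133, 137 and 133 summits, a mean of 27.0 per Mb and 0.423 of the density of the rest of chromosome 19. The proximal long arm cluster held 49, 57, 74 and 72 summits, or 37.1 per Mb and a ratio of 0.578. The distal long arm cluster held 77, 90, 97 and 103, or 57.3 per Mb and a ratio of 0.900. The subtelomeric cluster held 159, 166, 201 and 219, or 124 per Mb and a ratio of 1.94. Over the 4 libraries the pericentromeric densities ran from 20.4 to 29.8 per Mb and overlapped the proximal ones, from 28.8 to 43.5 per Mb. The distal densities, from 48.1 to 64.4 per Mb, and the subtelomeric ones, from 106 to 146 per Mb, overlapped with no other cluster. In the subtelomeric cluster every library lay above the rest of the chromosome, with ratios from 1.82 to 2.03, and in the other 3 every library lay below it. Each of these comparisons gave p = 0.125 by the exact sign-flip permutation test. With the summit-free stretch of 3.92 Mb kept in the length of the rest, the distal log2 ratio was -0.036 on average (exact sign-flip p = 0.25). The distal libraries then did not all lie below the rest.

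**Figure D1:**
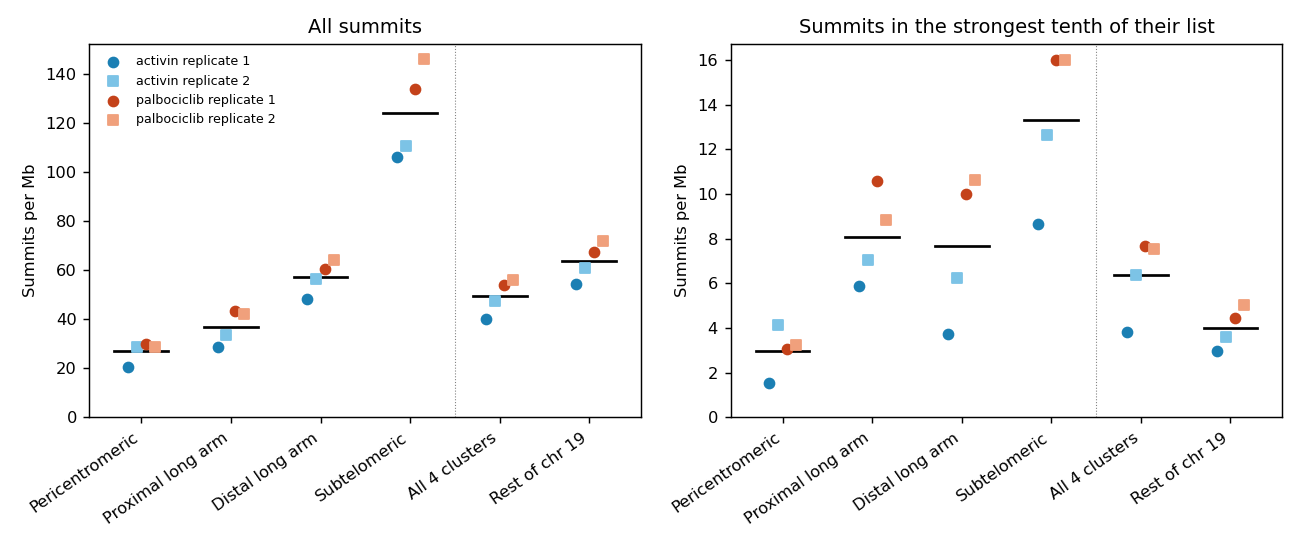
Density of SMAD2 summits in the 4 clusters, in all of them together and in the rest of chromosome 19; the y axes give summits per Mb, each point is 1 library and each bar the mean of the 4 libraries. The left panel counts all summits and the right panel those among the highest 10% of scores of their own list: all 4 clusters together lie below the rest at left (49.5 against 63.7 per Mb) and above it at right (6.36 against 4.02 per Mb).

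The highest 10% of scores made up a larger share of the summits in the clusters than in the rest of chromosome 19. Each summit has a score from the peak caller, read as −log10 q, and its rank was taken within its own list only. Of the cluster summits, 36, 60, 72 and 71 per library were among the highest 10% of scores of their list. These were 9.50%, 13.5%, 14.1% and 13.5% of the cluster summits, against 5.48%, 5.94%, 6.62% and 6.97% in the rest of chromosome 19. For activin replicate 1, the lowest, the exact Clopper-Pearson interval at 95% was 6.74% to 12.9%, and it covers counting error only. The difference was 6.39 ± 1.65 percentage points (SD, n = 4) and was positive in all 4 libraries, with p = 0.125 by the exact sign-flip permutation test. On the other chromosomes 10.1% to 10.2% of summits were in this class, so the rest of chromosome 19 stood below that level and the clusters, in 3 of 4 libraries, above it. Counted per Mb, high-scoring summits were 1.57 ± 0.22 times as dense in the clusters together as in the rest of chromosome 19 (SD, n = 4, range 1.28 to 1.76), or 0.64 on the log2 scale. The pericentromeric cluster did not share this excess per Mb, with a mean ratio of 0.746 and a range of 0.510 to 1.14. The mean ratio was 2.01 in the proximal long arm, 1.83 in the distal long arm and 3.29 in the subtelomeric cluster. By share of its summits, the pericentromeric cluster did lie above the rest, by 1.97, 8.35, 3.60 and 4.31 points (exact sign-flip p = 0.125). When only summits with a score of at least 5 were ranked, the log2 ratio of the clusters together was 0.35. The exact sign-flip permutation test then gave p = 0.25.

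The density ratio was below 1 for all summits, above 1 for the highest 10% and the highest 10000 of a list, and below 1 again for the highest 1000. Among the highest 10000 summits of each list, the clusters held 122, 144, 133 and 128, and the rest of the chromosome 395, 438, 443 and 465. The density ratio there was 1.47 ± 0.108 (SD, n = 4) with a lowest value of 1.34. By cluster it was 0.664 in the pericentromeric, 1.60 in the proximal long arm, 1.88 in the distal long arm and 3.36 in the subtelomeric cluster. The highest 1000 summits of a list included 1, 2, 2 and 3 from the clusters, all of them subtelomeric, and 14, 16, 12 and 17 from the rest of the chromosome. The density ratio there was 0.655 on average, from 0.347 to 0.856, and rests on these few summits.

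In the clusters, summits of middle score were the scarce class. The highest 20% of scores held a mean of 31.8% of the cluster summits and 18.5% of those in the rest of chromosome 19, a difference of 13.3 ± 3.52 points (SD, n = 4). The next 40% held 28.7% of the cluster summits and 41.4% of the others, a difference of -12.6 ± 1.29 points (SD, n = 4). Both differences had the same sign in all 4 libraries, and each gave p = 0.125 by the exact sign-flip permutation test. These bands were added after seeing the data, so the p-values here are descriptive and give no independent support. The lowest 40% held 39.5% and 40.1%, a difference that changed sign between libraries (exact p = 0.875). The proximal long arm cluster was the most divided, with 45.0% of its summits in the highest 20% of scores, 19.5% in the next 40% and 35.5% in the lowest 40%.

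**Figure D2:**
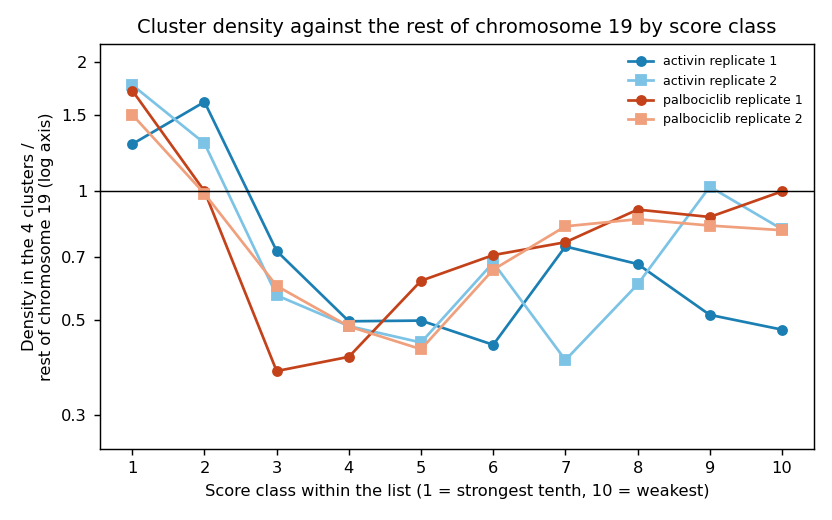
Density of summits in the 4 clusters divided by the density in the rest of chromosome 19 (y, log axis), for each of 10 equal classes of score within a list (x, class 1 the highest), with 1 line per library. All libraries lie above 1 in class 1, between 1.28 and 1.76, and below 1 in classes 3 to 6.

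The median rank of the cluster summits differed between libraries. On a scale of percentiles within a list (100 is the highest score), the median cluster summit stood at 66.1 and 57.0 with activin A alone and at 47.9 and 48.5 after palbociclib. The medians in the rest of chromosome 19 were 51.0, 51.7, 50.7 and 51.3. Cluster minus rest was 3.69 ± 8.49 points over the 4 libraries (SD, n = 4, exact sign-flip p = 0.625), with a mean of 10.2 in the activin and -2.80 in the palbociclib libraries (p = 0.333 by an exact permutation test of 2 against 2). Without activin replicate 1 the mean difference was -0.10. Among summits with a score of at least 5 it was 13.8 points (exact sign-flip p = 0.125). When each list was shortened to its 51535 highest summits, the cluster medians were 66.1, 57.1, 53.0 and 55.4 and those of the rest 51.0, 49.1, 50.5 and 48.3, a mean difference of 8.15 points that was positive in all 4 libraries (exact sign-flip p = 0.125). The proximal long arm cluster had the highest medians, 80.4, 77.7, 54.8 and 63.5, each above the rest of the chromosome in its library.

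Cluster sites found in all 4 libraries ranked high in score. Summits of the 4 libraries at most 200 bp apart were joined into regions, of which 939 lay in the clusters. A summit of every library was present in 201 of them (21.4%, exact Clopper-Pearson interval at 95% 18.8% to 24.2%), against 19.8% of 5694 regions in the rest of chromosome 19 and 20.4% of 115321 in the genome. Regions with 3 libraries were 8.20% in the clusters and 12.2% in the rest, and regions with a single library 55.0% and 50.0%. The median percentile of the score, taken as the median of the 4 libraries, was 85.9 in the 201 shared cluster regions, 75.4 in the 1126 shared regions of the rest of the chromosome and 76.0 in the shared regions of the genome. Among the shared cluster regions 54 (26.9%) lay in the highest 10% of scores, against 13.9% in the rest of the chromosome and 22.2% in the genome. Regions pool the 4 libraries and are not replicates, so these shares carry no test.

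Shared regions lay farther apart in the clusters, by the median, than in the rest of the chromosome. The median distance between neighbouring shared regions was 30.7 kb in the clusters and 16.2 kb in the rest of chromosome 19. It was 43.3 kb in the pericentromeric, 42.6 kb in the proximal long arm, 31.0 kb in the distal long arm and 18.7 kb in the subtelomeric cluster. The middle 50% of distances ran from 15.3 to 49.1 kb in the clusters and from 4.68 to 42.6 kb in the rest. The outermost summits of a shared cluster region lay a median of 66 bp apart, against 88 bp in the rest of the chromosome. The numbers of shared regions were 55, 30, 46 and 70 in the pericentromeric, proximal, distal and subtelomeric clusters, which is 12.0, 17.6, 28.8 and 46.7 per Mb. The clusters together held 21.4 shared regions per Mb, beside 24.7 per Mb in the rest of the chromosome, a smaller contrast than that of the median distances.

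The strongest shared region of the clusters was subtelomeric. At chr19:58326222-58326232 the 4 libraries placed their summits within 11 bp, with scores of 155 and 135 for activin A alone and 288 and 211 after palbociclib, and ranks of 878, 1393, 514 and 933 in their lists. By its worst rank it was number 8 of the 1327 shared regions on chromosome 19. The region at chr19:58898585-58898667 followed at number 16, with ranks of 1722 and 508 in the activin and 1445 and 569 in the palbociclib libraries. In the same cluster, chr19:58919798-58919813, chr19:59055317-59055328 and chr19:58906989-58907068 had worst ranks of 2464, 2567 and 2861, and the libraries agreed on their position within 16, 12 and 80 bp. Of the first 100 shared regions of chromosome 19 by worst rank, 16 lay in the clusters, beside 201 of all 1327 (15.1%).

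The leading sites of the other clusters ranked below the strongest subtelomeric region in every library. In the pericentromeric cluster it was chr19:19976715-19976770, with ranks of 2154 and 1957 in the activin and 1495 and 1847 in the palbociclib libraries. The next site there by worst rank, chr19:20426493-20426525, had ranks of 2266 and 2913 in the activin and 2627 and 4241 in the palbociclib libraries. In activin replicate 1 the sites were close in rank, and in activin replicate 2 another pericentromeric summit ranked 1835. In the proximal long arm cluster chr19:37178431-37178558 led with ranks of 2459, 1739, 1770 and 1576, and chr19:38270335-38270352 followed with a worst rank of 4003. In the distal long arm cluster the first was chr19:52772635-52772757, with ranks of 5029 and 3940 in the activin and 3043 and 4950 in the palbociclib libraries. Each of the leading sites was in the highest 10% of scores of all 4 libraries. Scores belong to their own list, so the higher scores of palbociclib libraries are no measure of more binding.

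The densest 100-kb window of the subtelomeric cluster ran from 58.3 to 58.4 Mb. It held 32, 33, 28 and 35 summits, a mean of 17.5% of that cluster's summits, and it contains the strongest shared region. Without this window the subtelomeric density ratio was 1.72 on average and at least 1.56 in each library. The densest window of the distal long arm cluster, from 53.4 to 53.5 Mb, held 13, 16, 13 and 14 summits. In the pericentromeric cluster the densest window, from 24.2 to 24.3 Mb, held 5, 14, 14 and 15, so activin replicate 1 was far below the others. In the proximal long arm cluster the densest window, from 37.8 to 37.9 Mb, held 4, 7, 8 and 9.

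**Figure D3:**
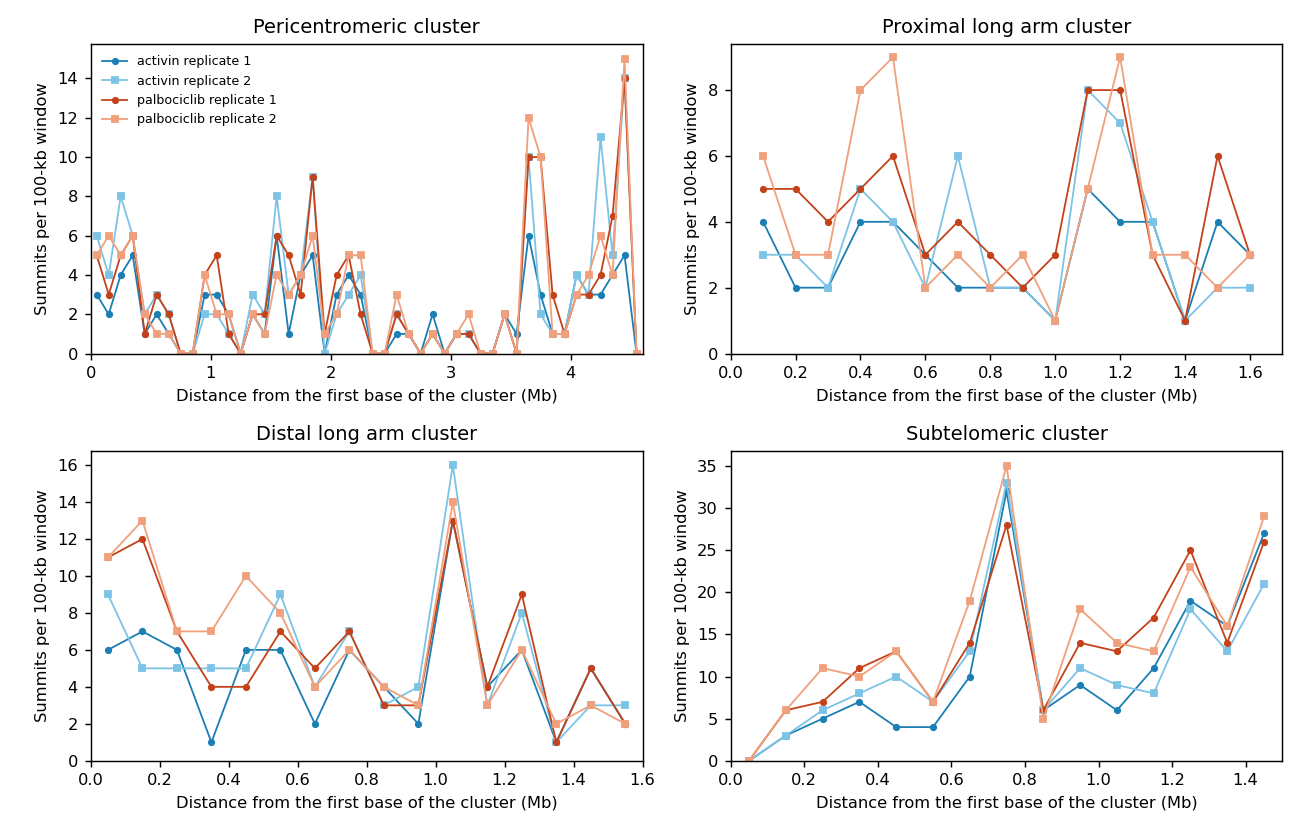
Summits per 100-kb window (y) along each cluster by distance from its first base (x, Mb), with 1 line per library and an own y scale in each panel. All 4 libraries are highest in the same subtelomeric window, with 28 to 35 summits, and the pericentromeric cluster shows runs of windows at 0.

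Most of the empty windows lay in the pericentromeric cluster. Of 46 windows in the pericentromeric cluster 10 had no summit in any library, against 1 of 15 in the subtelomeric cluster and 0 of 16 in each of the other 2. The longest stretch without a summit ran over 316 kb from 20432222 to 20747763 in the pericentromeric cluster. In the distal long arm cluster it was 117 kb, from 53720187 to 53837032. In the proximal and subtelomeric clusters the longest stretches lay at the cluster's edge and measured 79.6 and 103 kb. A stretch can also lack summits where reads cannot be placed on near-identical copies or where the assembly has gaps. How reads with several alignments were handled is not given in the sources used here, and the part of this in the lower density was not tested.

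The DNA next to the clusters was unlike in density from cluster to cluster. In the 500 kb before the pericentromeric cluster the libraries held 23, 31, 38 and 39 summits, or 65.5 ± 14.8 per Mb (SD, n = 4), and in the 500 kb after it none, on the side of the centromere. The proximal long arm cluster lay between denser flanks of 97.5 ± 9.57 and 96.0 ± 17.5 per Mb, more than its own 37.1 per Mb in every library. The distal long arm cluster had flanks of 42.5 ± 11.6 and 26.0 ± 4.90 per Mb, below its own 57.3 per Mb. Before the subtelomeric cluster the 500 kb held only 2, 2, 3 and 2 summits, or 4.5 per Mb. From this flank to the subtelomeric cluster the mean density stepped from 4.5 to 124 per Mb.

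The clusters held more summits in the palbociclib lists, in about the proportion seen in the rest of the chromosome. The cluster counts of the treatments did not overlap, with means of 412.5 ± 47.4 and 518 ± 12.7 (SD, n = 2 each), a 1.26-fold or 0.33 log2 difference. By exact permutation p was 0.333, the lowest that 2 against 2 can give, so no treatment comparison here can pass 0.05. The rest of chromosome 19 held 1.21-fold as many summits after palbociclib. With each list shortened to its 51535 highest summits, the cluster counts were 379, 426, 406 and 429, which overlapped between treatments and differed by 0.053 on the log2 scale (exact permutation p = 0.667). The log2 density ratio of clusters to rest was higher by 0.056 in the palbociclib libraries (exact permutation p = 0.667), and the groups overlapped. By cluster the counts after palbociclib were 1.19-fold in the pericentromeric, 1.38-fold in the proximal long arm, 1.20-fold in the distal long arm and 1.29-fold in the subtelomeric cluster. The pericentromeric counts of the groups overlapped, and those of the other 3 did not. Those of the rest of chromosome 19 (2481 and 2778 against 3080 and 3285) and the lengths of the whole lists did not overlap either. With lists of equal length the log2 changes were 0.013 in the pericentromeric, 0.196 in the proximal, -0.054 in the distal and 0.084 in the subtelomeric cluster.

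Within the clusters, the palbociclib lists were longer mainly in low-scoring summits. In the lower 50% of scores, the clusters held 147 and 204 summits with activin A alone and 262 and 266 after palbociclib, 1.50-fold as many. In the upper 50% they held 232 and 242 against 247 and 261, 1.07-fold as many. The rest of chromosome 19 showed no such split, with 1.22-fold in the lower and 1.20-fold in the upper 50%. Against the rest of the chromosome, the low-scoring summits of the clusters were higher after palbociclib by 0.32 on the log2 scale (exact permutation p = 0.333), with both palbociclib libraries above both activin libraries. Without activin replicate 1 this value was 0.18. By cluster the low-scoring counts were 1.92-fold in the proximal long arm, 1.61-fold in the subtelomeric, 1.58-fold in the distal long arm and 1.20-fold in the pericentromeric cluster. Part of this went with list length. With each list shortened to 51535 summits the low-scoring counts were 147 and 193 against 194 and 195, or 1.14-fold. The high-scoring counts were 0.959-fold, and the rest of chromosome 19 showed 1.04-fold in the lower and 1.02-fold in the upper 50%. Against the rest, the low-scoring change was then 0.15 on the log2 scale (exact permutation p = 0.667), and the treatments overlapped. Activin replicate 1 was then below the other 3 libraries in low-scoring counts. The high-scoring counts were 232 and 233 against 212 and 234, with palbociclib replicate 1 below the other 3.

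**Figure D4:**
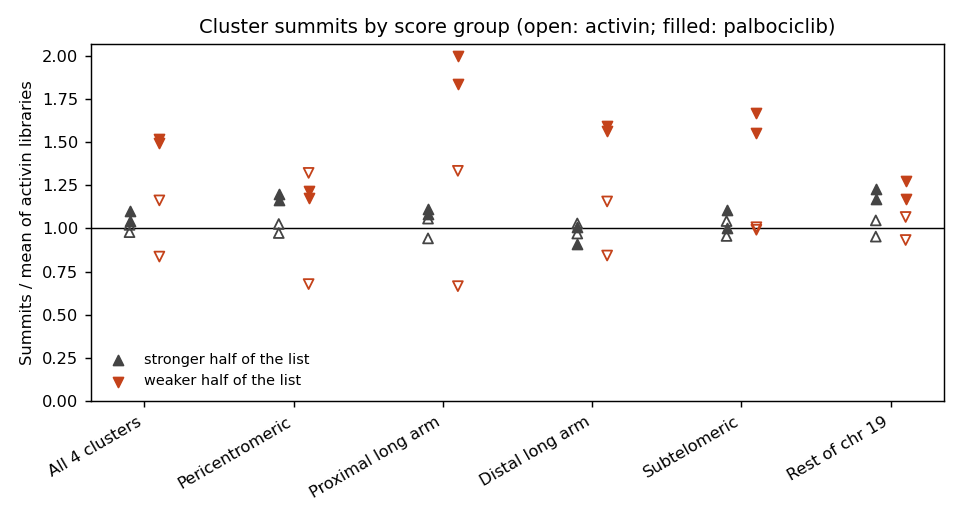
Summits with scores in the upper 50% (triangles pointing up) and the lower 50% (triangles pointing down) of their list, divided by the mean of the 2 activin libraries (y, linear), for the clusters together, each cluster and the rest of chromosome 19 (x). Open symbols are activin and filled ones palbociclib libraries: in all 4 clusters together the low-scoring palbociclib counts lie near 1.50 and the high-scoring ones near 1.07.

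The share of low-scoring summits found again in another library had lower means in the clusters, a description with no test. Of the cluster summits in the lower 50% of an activin list, a mean of 20.1% had a summit of the other activin library within 200 bp, against 34.1% in the rest of chromosome 19. Between the palbociclib libraries the means were 29.6% and 34.0%. From activin to palbociclib libraries they were 32.9% and 41.0%, and in the other direction 17.0% and 23.7%. For the highest 10% of scores the means were 88.9% to 96.5% in the clusters and 94.0% to 95.0% in the rest. For all summits together they lay close, such as 56.5% against 56.1% between the activin libraries. A denser background gives more chance neighbours, and its part in these shares was not tested.

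Windows in which both palbociclib libraries held more summits than both activin libraries were 20 of 82 in the clusters, or 24.4%. The same was seen in 31.0% of the windows with a summit in the rest of chromosome 19 and in 17.7% over the genome. Both palbociclib libraries were lower in 2 of 82 windows (2.44%), against 4.13% in the rest of the chromosome and 3.18% over the genome. With lists of equal length, 9 cluster windows were higher and 5 lower. The shares in the rest of the chromosome and over the genome were not counted in that setting. With the full lists, 9 of the 14 subtelomeric windows were higher after palbociclib. The numbers were 4 of 36 for pericentromeric, 4 of 16 for proximal and 3 of 16 for distal windows. Subtelomeric windows also held more summits, with a median of 11.4 per window, against 3 pericentromeric, 3.38 proximal and 5.25 distal. A window with few summits has less room to separate the groups, and the part of this was not tested. The widest gaps were at 23.5 to 23.6 Mb, where activin A alone gave 3 and 2 summits and palbociclib 10 and 10, and at 52.5 to 52.6 Mb, with 7 and 5 against 12 and 13. At 58.0 to 58.1 Mb the counts were 4 and 10 against 13 and 13. The lower windows, at 23.8 to 23.9 and 37.9 to 38.0 Mb, differed by 1 summit only, with 4 and 4 against 3 and 3.

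Regions found in both libraries of a single treatment were weak or lay close to summits of the other treatment. Presence in both palbociclib libraries with absence from both activin libraries was seen in 47 of the 939 cluster regions, or 5.01%, beside 4.94% in the rest of chromosome 19 and 5.29% in the genome. The reverse was seen in 15 regions, or 1.60%, beside 2.42% and 2.22%. The palbociclib-only regions lay a median of 969 bp from the nearest activin summit, and 5 of the 47 lay over 5 kb away. The activin-only regions lay a median of 416 bp from the nearest palbociclib summit, and none of the 15 lay over 5 kb away. No region of either set was in the highest 10% of scores in both of its libraries. The rest of chromosome 19 was similar, with 1 such region among 281 palbociclib-only and 0 among 138 activin-only regions. There the median distances were 639 and 457 bp, and 41 and 13 of these regions lay over 5 kb away.

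The strongest palbociclib-only and activin-only regions of the clusters were neighbours of each other. The region chr19:58873827-58873983 had palbociclib summits only, with ranks of 6761 and 6949 in the palbociclib lists. The region chr19:58874376-58874398, 393 bp away, had activin summits only, with ranks of 6056 and 5621. In the pericentromeric cluster the palbociclib-only region chr19:22816876-22816898 (ranks 13126 and 32860) and the activin-only region chr19:22817161-22817165 (ranks 15588 and 14416) lay 263 bp apart. In these pairs the treatments placed their summits 263 and 393 bp apart, counted between region edges, so neither treatment lacked a summit at the locus. The other palbociclib-only regions with the best ranks, chr19:58301021-58301149, chr19:58894495-58894664 and chr19:24006842-24007001, lay 224, 369 and 275 bp from an activin summit.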

How the data were processed

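SMAD2 ChIP-seq summits of 4 T47D libraries were analysed, 2 per treatment. The submitters' processing notes name MACS2 2.0.9, Bowtie 1.1.0 and Picard, and the build hg19. The handling of reads before peak calling is not given in the sources used here. Every deposited list gives the summits of 1 library, and the score the authors' peak caller gave was read as −log10 q, because all scores lay above the −log10 of 0.05, 1.31 being the lowest. Up to 2289 summits of a list share a score, and such ties took their mean rank.

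Positions were converted to count from 1, and chromosomes 1 to 22 and X were kept. Percentiles were taken within each list, so that no score was compared between lists. The length of the rest of chromosome 19 runs from its first to its last summit without the clusters and without stretches over 2 Mb free of summits. Summits at most 200 bp apart were joined into regions. Windows were 100 kb and counted where any library had a summit. The library was the replicate: cluster against rest was tested with an exact sign-flip permutation test over 4 libraries (smallest p 0.125), and treatment with an exact permutation test of 2 against 2 (smallest p 0.333), both two-sided. Summit lists carry no read numbers, so depth is unknown.

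The clusters, gene lists and tests were chosen with earlier results of these data known. Named regions are, by rule, the shared and treatment-only regions with the best worst rank, and named windows the densest and the most different. The division into low and high scores and the density of the highest 10% of scores were added after seeing the data. Gene names and promoters are from RefSeq (GRCh38.p14), and 65 of 66 listed genes matched its gene table. Python 3.11.15, numpy 2.4.6, pandas 2.3.3, scipy 1.17.1 and matplotlib 3.10.9 were used, and the counting code was tested on simulated data.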

Additional observations from a re-analysis of the deposited data

How the results depend on the processing

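Values here are log2 ratios unless said otherwise. A score of at least 2 or of at least 5, lists of equal length, leaving out each library, bounds moved by 100 kb and no stretch taken off the length kept the density of the clusters below that of the rest of chromosome 19. Without each library in turn it was -0.384 to -0.346. With the highest 10000 summits of each list it was 0.555, and against the other chromosomes 1.30. In these settings the cluster values were 0.68 (proximal) and 0.91 (distal) with the highest 10000, and 0.42 (pericentromeric), 0.87 (proximal) and 1.52 (distal) against the other chromosomes. With no stretch taken off the length the distal value was -0.036. The ratio for the highest 10% of scores was 0.64, 0.576 to 0.729 without each library, 0.35 at a score of at least 5 and -0.695 within the highest 10000.

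The median rank difference, in percentile points, was 8.15 at equal length and 13.8 at a score of at least 5 (exact sign-flip p = 0.125 for both), and -0.101 to 5.85 without each library. In the pericentromeric cluster it was -2.59 to 4.69 without each library, -2.59 being without activin replicate 1, and -0.633 and -0.116 with bounds trimmed or extended by 100 kb. In the subtelomeric cluster it was -0.475 to 3.78 without each library, and below 0 without activin replicate 1 (-0.153) or 2.

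The treatment change in the clusters was 0.216 to 0.451 without each library, 0.053 at equal length and -0.027 with the highest 10000, where the pericentromeric value was -0.40. At equal length the distal value was -0.054. Against the rest of chromosome 19 the change was 0.020 to 0.092 without each library, -0.026 at a score of at least 5 and -0.149 with the highest 10000. There the proximal and subtelomeric values were -0.011 and -0.066. The pericentromeric value was 0.0086 at a score of at least 2, 0.0092 with extended bounds and -0.174 to 0.164 without each library, above 0 without activin replicate 2 (0.164) or palbociclib replicate 2 (0.063). The distal value was -0.044 to 0.018, with 0.018 without activin replicate 2. The change of low-scoring summits against the rest was 0.177 to 0.457 without each library, 0.148 at equal length and -0.304 with the highest 10000.

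The share of regions in all libraries, clusters minus rest, was 1.63 percentage points, 0.545 to 1.59 without each library, 6.54 at a score of at least 5, 15.7 with the highest 10000, and -0.447 and -0.277 at joining distances of 500 and 1000 bp. The 47 palbociclib-only regions became 23 at equal length, 4 with the highest 10000, 28 at 1000 bp and 68 to 216 without each library. The 15 activin-only regions became 7 with the highest 10000, 6 at 500 bp, 3 at 1000 bp and 27 to 138 without each library, as fewer libraries then had to hold or lack a summit. The 20 windows higher after palbociclib became 9 at equal length, 3 with the highest 10000, 13 at 200 kb and 23 to 38 without each library. The 2 lower windows became 1 at a score of at least 5, 5 at equal length, 4 with the highest 10000, 5 at 50 kb, 0 at 200 kb and 4 to 12 without each library. The cause of these changes was not tested.

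Same-numbered libraries did not deviate together (r = -0.000732 over 23476 shared regions). With a replicate block the treatment change was 0.333 in the clusters, 0.056 against the rest and 0.317 for low-scoring summits. The exact sign-flip p-values were 0.5, 1 and 0.5, and 0.5 is the smallest that 2 pairs of libraries allow. The count of motifs at summits was not run, since no hg19 sequence was used here. Read depth is unknown, and 2 libraries a group limit every treatment comparison.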
